A study of Homo sapiens with 10 samples.

Results

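The clusters described here are the largest stretches of H3K27ac, outside peaks that sit wholly at a transcription start site (TSS), that all 4 MDA-MB-453 peak lists shared. MDA-MB-453 and SKBR3 are established HER2 breast cancer cell lines, and H3K27ac ChIP-seq was performed in both with and without TWEAK, the ligand of the Fn14 receptor. The 4 groups were untreated MDA-MB-453, MDA-MB-453 with TWEAK, untreated SKBR3 and SKBR3 with TWEAK, with 2 libraries in each and 1 peak list for each library. All cells went through 8 h of serum starvation, after which the TWEAK groups received 10 ng/ml of the ligand over 48 h, with a fresh dose at 24 h. Each line came with 1 input library, which was not analysed here. The study's methods describe ChIP-seq replicates in cell lines as biological, while the labels do not name the culture of each library.

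In each MDA-MB-453 list, peaks wholly within 2.5 kb of a TSS were dropped, the rest were stitched across gaps of up to 12500 bp, and the stitched clusters were ranked by cover, the number of base pairs that lay under a peak. The top 500 of each list were merged into 606 candidates, and 406 of these were overlapped by 5 kb or more by the top 500 of all 4 lists. Of the remaining candidates, 91 reached this overlap in 1 list, 57 in 2 lists and 52 in 3 lists. The 406 clusters were thus selected on their MDA-MB-453 cover and made up 2.76% of the 14695 stitched clusters with a distal peak in every MDA-MB-453 list. Their MDA-MB-453 values are given as a description with no test, and nothing is drawn from their size. Cover in SKBR3 had no part in the choice.

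H3K27ac is placed on histones at active promoters and enhancers, and long runs of closely spaced H3K27ac peaks, often called super-enhancers, are known to lie near genes that set cell identity. In breast epithelium such genes include the luminal factors FOXA1, GATA3 and TFAP2A. Both lines express the receptor ERBB2 (HER2), and MDA-MB-453 is known as a line of luminal apocrine character.

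The labelled cell type was compared with peaks within 1 kb of a TSS of marker genes. EPCAM, KRT8, KRT18, KRT19, CLDN4, GATA3, ERBB2, FOXA1 and SPDEF had such a peak in all 8 lists, whereas the adhesion gene CDH1 had one in all 4 MDA-MB-453 lists and in 0 SKBR3 lists. The basal keratins KRT5 and KRT14 and the blood and endothelial markers PTPRC, CD3E, PECAM1 and VWF, as well as the stromal marker DCN, had none in any list, although COL1A1 had one in all 8. TP63, VIM and ZEB1 had one in 4 MDA-MB-453 lists and in 1, 3 and 3 SKBR3 lists, respectively. Distal peaks covered between 51.3 and 52.6 Mb in MDA-MB-453 lists and between 74.7 and 88.1 Mb in SKBR3 lists, so SKBR3 lists could cover more of any region, and the read depth behind either is unknown. The 88.1 Mb was that of SKBR3 TWEAK replicate 2, against at most 80.3 Mb in the other SKBR3 lists.

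To show what these clusters are made of, 300 bases of hg38, plus strand, are printed from the middle of the widest stretch that all 4 MDA-MB-453 lists covered in each of 4 clusters. They are the clusters with the highest MDA-MB-453 cover (the histone genes, chr6:26200148-26200447, and ITPR1, chr3:4688402-4688701), a cluster with no SKBR3 cover (the one nearest RHOU, chr1:228628760-228629059), and the one with the highest ratio of SKBR3 to MDA-MB-453 cover (ERBB2, chr17:39703628-39703927). The window of the ELF3 cluster fell in an untranslated exon and is left out. Capitals mark matches, on either strand, to 7 motifs. These are the NF-kB site and short motifs spelled TGANTCA for AP-1 (its N being a cytosine or guanine), TGTTTAC for FOXA, AGATAA for the GATA family, GCCNNNGGC for AP-2, AACCNGTT for grainyhead, and CCGGAAG for ETS factors.
Histone genes: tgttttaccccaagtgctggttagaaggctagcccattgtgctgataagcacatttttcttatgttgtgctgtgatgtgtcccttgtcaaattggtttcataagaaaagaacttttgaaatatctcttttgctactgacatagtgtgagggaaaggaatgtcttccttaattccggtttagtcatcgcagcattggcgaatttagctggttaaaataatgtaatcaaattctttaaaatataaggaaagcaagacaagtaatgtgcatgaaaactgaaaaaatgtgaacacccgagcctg
ITPR1: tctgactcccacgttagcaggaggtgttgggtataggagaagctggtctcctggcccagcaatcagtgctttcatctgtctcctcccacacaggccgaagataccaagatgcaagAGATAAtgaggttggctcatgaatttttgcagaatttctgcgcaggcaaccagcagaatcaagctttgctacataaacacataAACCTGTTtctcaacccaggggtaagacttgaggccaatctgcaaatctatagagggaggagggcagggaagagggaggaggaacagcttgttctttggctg
RHOU neighbourhood: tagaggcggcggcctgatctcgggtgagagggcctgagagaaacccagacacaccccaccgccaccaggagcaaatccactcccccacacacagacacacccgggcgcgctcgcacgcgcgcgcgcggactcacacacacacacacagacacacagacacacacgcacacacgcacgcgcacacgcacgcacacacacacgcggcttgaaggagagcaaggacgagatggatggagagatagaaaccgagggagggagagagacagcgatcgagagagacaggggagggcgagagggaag
ERBB2: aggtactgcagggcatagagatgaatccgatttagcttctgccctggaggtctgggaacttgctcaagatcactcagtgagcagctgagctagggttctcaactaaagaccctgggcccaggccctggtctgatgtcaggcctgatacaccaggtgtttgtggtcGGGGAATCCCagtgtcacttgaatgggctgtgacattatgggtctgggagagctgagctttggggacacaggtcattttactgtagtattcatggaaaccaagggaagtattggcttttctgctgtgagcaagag

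The ITPR1 window held 2 matches, starting at base 116 (GATA) and base 199 (grainyhead), and 126 of its bases lay in an exon. The ERBB2 window, inside the gene body, held 1 NF-kB match starting at base 166, and the other two windows held none of these letters. The RHOU-neighbourhood window occurred 9 times in the genome as an exact copy of all 300 bases, and the first 100 bases occurred 17 times. The cluster around it holds 17 annotated 5S ribosomal RNA genes, a tandem repeat in which the copy a read came from cannot be told, so its cover is uncertain. The other 3 windows occurred once. A match of letters is a description and not a bound site.

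Over all 19509 stretches of at least 300 bp that the 4 MDA-MB-453 lists covered, a middle window of the same length held a GATA match in 19.9%, an AP-2 match in 12.4%, a FOXA match in 10.7%, an AP-1 match in 10.3%, a grainyhead match in 4.11%, an NF-kB match in 3.16% and an ETS match in 1.55%. In the 1805 windows inside the 406 clusters these shares were 16.5%, 11.4%, 8.20%, 8.20%, 3.05%, 4.65% and 1.22% in the same order. The shares inside the clusters were thus lower for 6 of the 7 motifs and higher for NF-kB. Mean GC content was 47.0% inside the clusters and 45.1% over all windows, and its part in these shares was not tested.

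The clusters were long and dense. They spanned 14.5 to 153 kb with a median of 39.2 kb, summed to 17.5 Mb, and had a mean cover over the 4 MDA-MB-453 lists of 13.8 to 83.5 kb (median 19.8 kb, against 1.83 kb over all 14695 clusters). A median of 54.5% of a cluster lay under peaks, and 8.14 Mb was covered in all 4 lists. The widest stretch covered in all 4 lists had a median of 8.88 kb and reached 41.0 kb at the 5S ribosomal RNA repeat. Between the 4 MDA-MB-453 lists the coefficient of variation of a cluster's cover had a median of 4.21% and ran from 0.111% to 20.3%. Just inside the limit lay clusters nearest KIAA1217, CD34 and SEMA4B, with a mean cover of 14.0, 13.9 and 13.8 kb. The largest candidates left out lay nearest SETBP1, PTP4A2 and MDC1 with 23.8, 23.8 and 21.1 kb, since they did not reach a 5 kb overlap in the top 500 of every list. The 500th cluster of a list had a cover of 13.4 to 13.5 kb in MDA-MB-453 and of 23.02 to 26.7 kb in SKBR3.

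The name distal holds only in part. The rule drops peaks that lie wholly next to a TSS, but a wide peak that runs across one stays, and 265 of the 406 clusters (65.3%) held a protein-coding TSS. In 239 clusters such a TSS lay under a stretch covered in all 4 lists, and 82 clusters held no annotated TSS of any kind. Of the shared covered length, 15.9% lay within 1 kb of a TSS and 66.8% in protein-coding gene bodies, against 10.9% and 59.7% over all clusters. Among the 141 clusters without a protein-coding TSS, 80 overlapped a gene body and 61 did not. Their nearest protein-coding TSS lay at a median of 53.7 kb, and 48 lay more than 100 kb from it. Of the 406 clusters, 214 had another of them within 1 Mb. This count and those of clusters with and without a TSS were not taken over all clusters. They are descriptions and do not set the 406 apart from others.

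The authors' fold enrichment, which the rule did not use but which comes from the same peaks, is given as a description. Weighted by cover, the median fold enrichment of a cluster was 12.8 to 14.8 in the 4 MDA-MB-453 lists, against a cover-weighted mean of 9.84 to 11.0 over all distal peaks of the same lists. When stitched clusters were ranked by peak width times fold enrichment instead of by cover, 276 of the 406 (68.0%) still overlapped the clusters that this ranking kept in all 4 lists.

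The largest cluster, chr6:26144675-26297581, held the TSS of 19 histone genes of the H1, H2A, H2B, H3 and H4 families, which package DNA and in which the genes of one family are close copies of each other. Its cover was 82.5 and 83.5 kb in the untreated and 84.9 and 82.97 kb in the TWEAK lists of MDA-MB-453. In SKBR3 the same stretch had 75.7 and 71.2 kb untreated and 68.3 and 73.4 kb with TWEAK, and all 4 SKBR3 values lay below the 4 MDA-MB-453 values. It was one of the clusters that also ranked in the top 500 of all 4 SKBR3 lists. How reads of close copies were placed is not given in the sources used here.

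The second, chr3:4678726-4788640, lay inside ITPR1, which encodes a calcium release channel of the endoplasmic reticulum, and had 77.3 and 80.1 kb in the untreated and 80.2 and 79.2 kb in the TWEAK lists of MDA-MB-453. SKBR3 lists covered far less of it, with 12.3 and 11.4 kb untreated and 21.9 and 35.2 kb with TWEAK, and there both TWEAK lists lay above both untreated lists. The 35.2 kb was that of TWEAK replicate 2, the SKBR3 list with the most distal cover. The third, chr22:46035013-46116963, lay 33.6 kb from the TSS of PPARA, a nuclear receptor for fatty acids, with 62.3 and 65.5 kb in the untreated and 66.7 and 67.4 kb in the TWEAK lists of MDA-MB-453 and 51.2 and 43.1 kb untreated and 41.9 and 32.4 kb with TWEAK in SKBR3. Here the TWEAK lists were the higher ones in MDA-MB-453 and the lower ones in SKBR3.

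LDLRAD3, which encodes a membrane protein of the LDL receptor class, and SPRED2, an inhibitor of RAS-MAPK signalling, followed. The LDLRAD3 cluster had 59.98 and 65.8 kb in the untreated and 64.5 and 64.4 kb in the TWEAK lists of MDA-MB-453, but 5.997 and 9.87 kb untreated and 8.81 and 12.3 kb with TWEAK in SKBR3. The SPRED2 cluster had 58.4 and 61.2 kb in the untreated and 60.9 and 62.2 kb in the TWEAK lists of MDA-MB-453, but 13.8 and 21.04 kb untreated and 14.3 and 16.9 kb with TWEAK in SKBR3. Both were thus at least partly covered in every SKBR3 list, at 14.5% and 27.2% of their mean MDA-MB-453 cover. In the cluster of KCNMA1, a potassium channel gene, MDA-MB-453 lists had 54.3 to 59.5 kb and SKBR3 lists 26.4 to 30.1 kb.

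The 7th cluster, chr15:40762767-40907870, went the other way. It held the TSS of 8 genes, among them SPINT1, an inhibitor of cell surface proteases, and the small GTPase gene RHOV. It had 56.5 and 54.05 kb in the untreated and 52.2 and 61.1 kb in the TWEAK lists of MDA-MB-453, whereas SKBR3 had 122 and 113 kb untreated and 118 and 113 kb with TWEAK. The SKBR3 mean was the highest among the 406 clusters, and all 4 SKBR3 values lay above the MDA-MB-453 values. The 8th, at EHF, an ETS factor of epithelial cells, had 55.3 and 55.2 kb in the untreated and 52.6 and 53.2 kb in the TWEAK lists of MDA-MB-453 and 24.6 and 24.1 kb untreated and 26.2 and 25.2 kb with TWEAK in SKBR3. PLEKHF2, which encodes an endosomal protein, was 10th, with 47.8 to 52.1 kb in MDA-MB-453 and 30.1 to 37.6 kb in SKBR3.

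**Figure D1:**
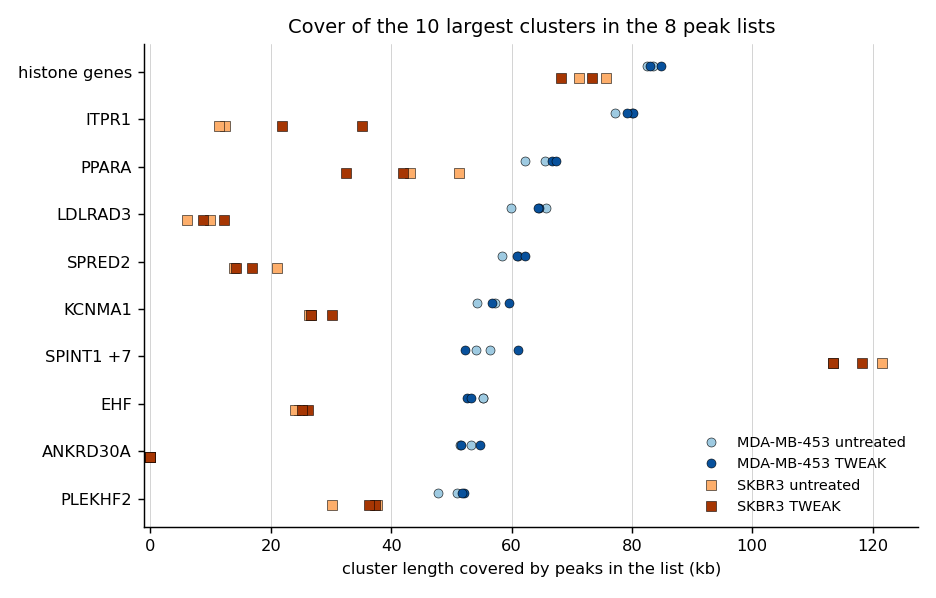
Cover (kb under peaks, x axis) of the 10 clusters with the highest mean MDA-MB-453 cover in each of the 8 lists, with circles for MDA-MB-453 and squares for SKBR3, pale for untreated and dark for TWEAK; a plus sign with a number counts further genes with a TSS inside. The 4 MDA-MB-453 points of a cluster sit close together, ANKRD30A has all SKBR3 points at 0, and SPINT1 has all SKBR3 points to the right of its MDA-MB-453 points.

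To compare the clusters with SKBR3, their summed cover was taken in each list. MDA-MB-453 lists covered 52.3% to 53.1% of the length of the 406 clusters, by selection. SKBR3 lists covered 44.1% and 42.0% untreated and 43.1% and 43.6% with TWEAK, a mean of 43.0% ± 1.49 (SD, n = 2) and 43.4% ± 0.397 (SD, n = 2). The TWEAK difference of 0.354 percentage points was smaller than the spread between the untreated lists (exact two-sided permutation test over 6 assignments, p = 1.00, where the smallest possible p is 0.3333). It was -0.698 percentage points without SKBR3 untreated replicate 2.

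Cluster by cluster, the mean SKBR3 cover was 0.833 times the mean MDA-MB-453 cover at the median, against 0.416 times over all 14695 clusters. The part of cluster size in this difference was not tested. SKBR3 had the higher mean in 153 of the 406 clusters and more than 2 times the MDA-MB-453 mean in 7. A ratio of 2 or over was found in 1.72% of the 406 clusters and in 3.42% of all 14695. All 4 SKBR3 lists lay above all 4 MDA-MB-453 lists in 114 clusters, below them in 207, and the lists overlapped in 85. The 153 and these overlap counts were not taken over all 14695 clusters, so they do not set these clusters apart from others. No test was made between the lines, since MDA-MB-453 cover chose the clusters. Clusters that held a protein-coding TSS had a median ratio of 0.916, and those without one had 0.644.

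**Figure D2:**
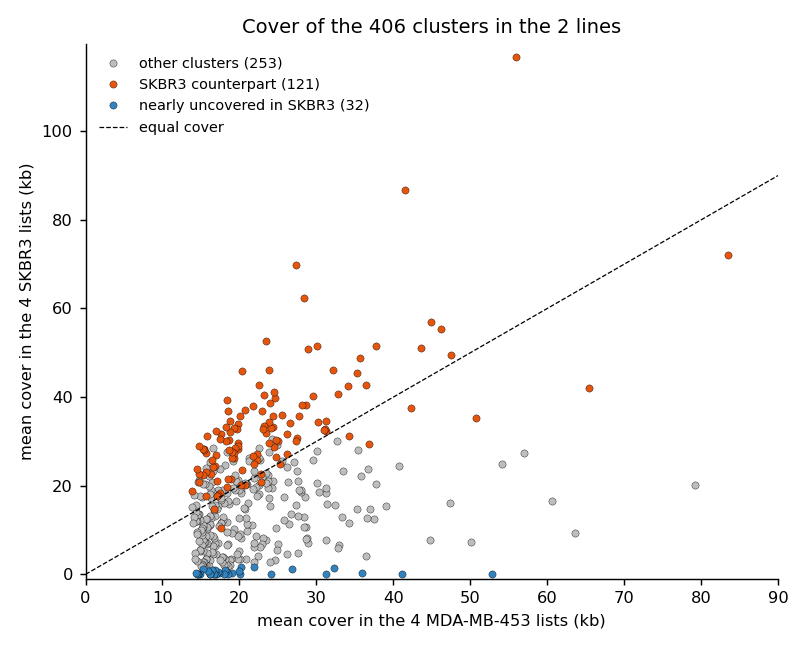
Mean cover in the 4 SKBR3 lists (y axis, kb) against mean cover in the 4 MDA-MB-453 lists (x axis, kb) for the 406 clusters, 1 point each, with a dashed line at equal cover. The 121 clusters with an SKBR3 counterpart (orange) spread on both sides of the line, and the 32 nearly uncovered ones (blue) lie along the bottom at up to 52.8 kb of MDA-MB-453 cover.

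**Figure D3:**
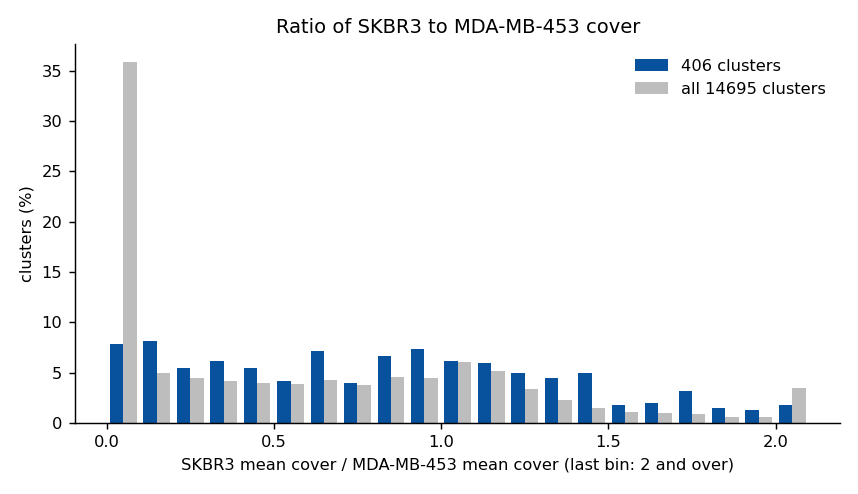
Share of clusters (y axis, percent) by the ratio of mean SKBR3 to mean MDA-MB-453 cover (x axis, bins of 0.1, the last bin holding 2 and over), for the 406 clusters in blue and all 14695 clusters in grey. The first bin holds 7.88% of the 406 and 35.9% of all clusters.

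A cluster was said to have an SKBR3 counterpart where the top 500 of all 4 SKBR3 lists overlapped it by 5 kb or more. This held for 121 of the 406 clusters (29.8%), against 2.65% of all 14695. A cluster shorter than 5 kb cannot meet this overlap, and the 406 were all at least 14.5 kb long. These shares are therefore not a like comparison, and the part of length in their difference was not tested. Another 73 clusters met the overlap in 1 to 3 SKBR3 lists and 212 in none. In single lists the number was 153 and 158 untreated and 156 and 163 with TWEAK, a difference of 4 clusters (exact two-sided permutation test, p = 0.667). The same rule run on SKBR3 gave 340 clusters, and 130 of the MDA-MB-453 clusters (32.0%) overlapped 122 of these (35.9%). Counterparts were found for 34.0% of the clusters with a protein-coding TSS and for 21.99% of those without.

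The 5 clusters with the highest ratio all had a counterpart. The ERBB2 cluster, chr17:39671740-39754832, also held the TSS of GRB7, MIEN1 and PGAP3, genes next to the receptor gene on chromosome 17. It had 28.1 and 26.7 kb in the untreated and 28.4 and 26.4 kb in the TWEAK lists of MDA-MB-453 and 74.4 and 68.4 kb untreated and 74.4 and 61.9 kb with TWEAK in SKBR3, a ratio of 2.55. SKBR3 lists covered nearly all of it past the first 26.7 kb, where MDA-MB-453 lists had separate peaks. SKBR3 peaks also lay over its start, ending at 9.12 kb in TWEAK replicate 2 and at 18.0 to 18.1 kb in the other lists. SKBR3 is known for its amplified ERBB2, and DNA copy number was not measured here.

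ELF3, an epithelial ETS factor, had 20.3 and 21.5 kb in the untreated and 18.96 and 20.8 kb in the TWEAK lists of MDA-MB-453 and 47.3 and 47.1 kb untreated and 47.9 and 41.3 kb with TWEAK in SKBR3. MIDEAS, a scaffold of a histone deacetylase complex, had 23.1 to 23.9 kb in MDA-MB-453 and 50.9 to 54.5 kb in SKBR3. At SH3BP4, which acts in endocytosis, SKBR3 lists covered 61.6 to 62.5 kb of a cluster of 62.5 kb, against 26.3 to 30.4 kb in MDA-MB-453. The cluster 18.1 kb from NCEH1, a cholesteryl ester hydrolase gene, had 16.8 to 19.2 kb and 30.9 to 44.4 kb. In all 5 clusters the 4 SKBR3 values lay above the 4 MDA-MB-453 values.

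At the other end, 32 clusters (7.88%) were nearly uncovered in SKBR3, with a mean SKBR3 cover under 10% of the mean MDA-MB-453 cover, against 35.9% of all 14695 clusters. No SKBR3 list had a distal peak in 14 of them (3.45%, against 31.2% of all). The nearly uncovered share was 12.1% among clusters without a protein-coding TSS and 5.66% among those with one.

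Among the 14 was ANKRD30A, chr10:37145383-37245878, inside a gene known as a differentiation antigen of breast epithelium. It had 53.3 and 51.5 kb in the untreated and 51.5 and 54.8 kb in the TWEAK lists of MDA-MB-453 and 0 kb in all 4 SKBR3 lists, and the nearest SKBR3 peaks of any kind lay 28.3 and 243 kb away on either side. One peak stretch shared by the 4 MDA-MB-453 lists was 40.8 kb wide. CDH1, chr16:68721559-68800952, which encodes the adhesion protein E-cadherin, had 31.8 and 30.3 kb in the untreated and 31.3 and 31.7 kb in the TWEAK lists of MDA-MB-453 and 0 kb in SKBR3, with the nearest SKBR3 peaks 182 and 42.6 kb away. SKBR3 is known to lack E-cadherin, and DNA copy number at CDH1 was not measured here.

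NR2F1, chr5:93556772-93608230, which encodes an orphan nuclear receptor, had 24.9 and 24.4 kb in the untreated and 23.6 and 23.6 kb in the TWEAK lists of MDA-MB-453. ARHGAP6, chrX:11232612-11285746, a GTPase-activating protein gene, had 18.3 and 23.8 kb in the untreated and 21.6 and 16.6 kb in the TWEAK lists of MDA-MB-453. Both had 0 kb in SKBR3. The 5S ribosomal RNA repeat 85.96 kb from RHOU, chr1:228608392-228649519, had 41.02 to 41.1 kb in MDA-MB-453, where 99.9% of its 41.1 kb lay under peaks, and 0 kb in SKBR3. The remaining 9 of the 14 lay nearest MME, FABP5, SIPA1L2, BAZ2B, EDA2R, RAPGEF2, DACH1, SEC23IP and DCLK1, with a mean MDA-MB-453 cover of 14.4 to 18.5 kb. In the BAZ2B cluster SKBR3 had a peak that the rule dropped as lying at a TSS.

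**Figure D4:**
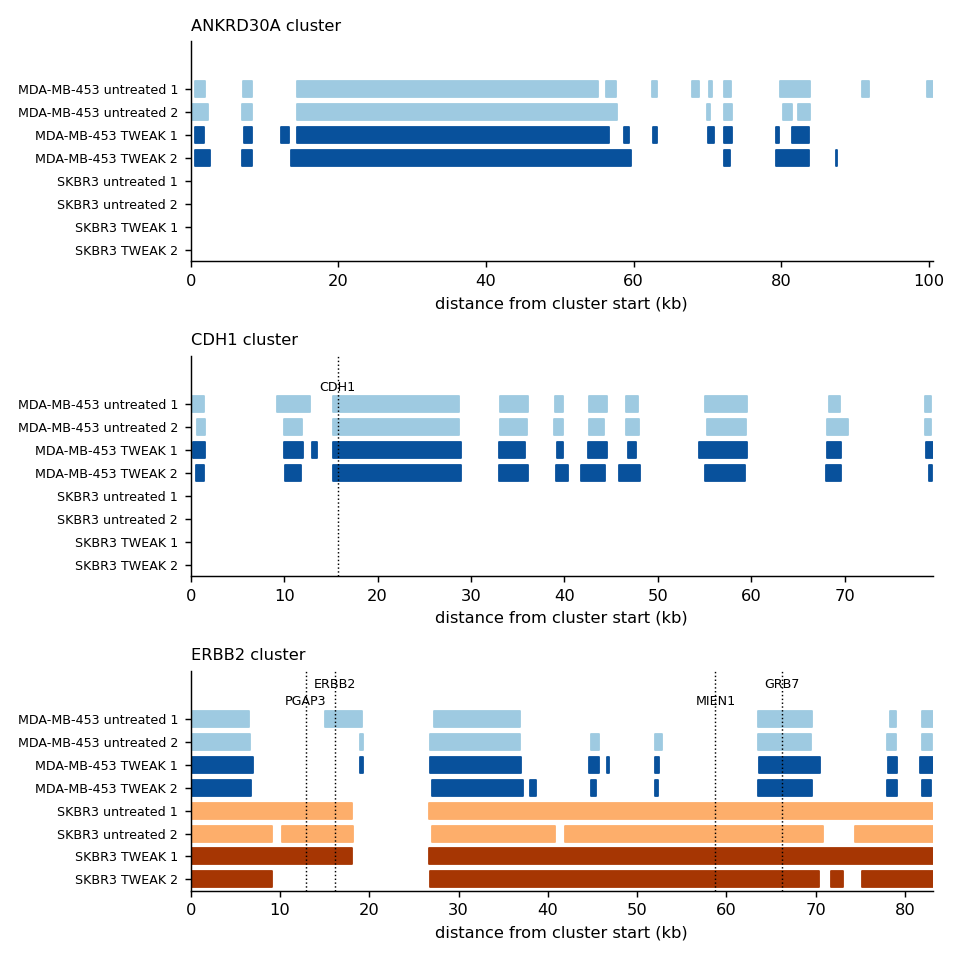
Peaks left after the TSS rule in the ANKRD30A, CDH1 and ERBB2 clusters (panels), drawn as bars along the distance from the start of the cluster (x axis, kb), 1 row for each of the 8 lists; dotted lines mark the most upstream TSS, by position, of each protein-coding gene. The first 2 panels have no bar in the 4 SKBR3 rows, and in the ERBB2 panel SKBR3 rows are almost filled from 26.7 kb on.

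The motif shares of the windows were also taken within these classes. Of 131 windows in nearly uncovered clusters, 28.2% held a GATA match, 10.7% a FOXA match and 6.87% an AP-2 match. Of 574 windows in clusters with a counterpart, 12.4% held a GATA match, 6.62% a FOXA match and 15.7% an AP-2 match. The other shares lay closer in percentage points, with 6.87% and 8.36% for AP-1, 6.11% and 7.32% for NF-kB, 1.53% and 3.14% for grainyhead and 1.53% and 0.871% for ETS in the same order. Mean GC content was 42.4% in the first and 50.7% in the second, and AGATAA is poor and GCCNNNGGC rich in G and C. Its part in these shares was not tested.

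To see which known genes the clusters lie at, lists of genes were compared with all protein-coding genes, of which 6.87% had a TSS within 100 kb of one of the 406 clusters. Among 17 luminal and apocrine transcription factor and receptor genes, 10 (58.8%) did, and all 10 TSS lay inside a cluster. They were FOXA1, GATA3, SPDEF, TFAP2A, TFAP2B, XBP1, TRPS1, TOX3, CREB3L4 and PRLR.

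GATA3, a luminal lineage factor, had 33.8 and 34.1 kb in the untreated and 33.3 and 32.4 kb in the TWEAK lists of MDA-MB-453 in the cluster over its TSS, chr10:8044472-8085057, and 11.04 and 13.4 kb untreated and 11.5 and 15.9 kb with TWEAK in SKBR3. A further cluster with GATA3 as its nearest protein-coding TSS lay 979 kb away, with 22.9 to 24.7 kb in MDA-MB-453 and 0.251 to 7.58 kb in SKBR3. SKBR3 thus had a lower cover at both. FOXA1, a pioneer factor that opens chromatin for steroid receptors, had 15.00 and 17.7 kb in the untreated and 16.3 and 15.7 kb in the TWEAK lists of MDA-MB-453 and 18.6 and 17.8 kb untreated and 18.3 and 18.02 kb with TWEAK in SKBR3, and each SKBR3 value was above each MDA-MB-453 value. A further cluster 44.7 kb from the FOXA1 TSS, at TTC6, went the other way, with 17.0 and 17.5 kb in the untreated and 16.7 and 15.1 kb in the TWEAK lists of MDA-MB-453 and 5.09 and 3.81 kb untreated and 4.89 and 4.39 kb with TWEAK in SKBR3.

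TRPS1, a GATA-type repressor, had 35.99 to 39.9 kb in MDA-MB-453 and 12.8 to 18.03 kb in SKBR3. TFAP2A and TFAP2B, AP-2 factors of luminal cells, had 33.5 and 28.6 kb on average in MDA-MB-453 and 23.4 and 10.7 kb in SKBR3. A further cluster 206 kb from the TFAP2A TSS had 27.6 kb on average in MDA-MB-453 and 13.1 kb in SKBR3. SPDEF, an ETS factor of secretory cells, had 24.3 to 25.4 kb and 28.00 to 32.4 kb. XBP1, a factor of the unfolded protein response, had 39.9 to 46.4 kb and 36.5 to 40.1 kb. The order between the lines therefore differed among the luminal factors. TOX3 was lower in SKBR3 (mean 5.16 against 15.3 kb), as was the prolactin receptor gene PRLR (15.4 against 23.96 kb), whereas CREB3L4 had 17.5 against 16.5 kb.

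Of 15 epithelial ETS, KLF and grainyhead factor genes, 6 (40%) had a TSS within 100 kb, with EHF, ELF3, GRHL2 and HES1 inside a cluster. ELF5 and ID1 lay 93.8 kb from the clusters of EHF and BCL2L1, respectively. Of 18 epithelial adhesion and keratin genes 8 (44.4%) did, and the cluster of KRT7 and KRT80 had 39.8 to 42.9 kb in MDA-MB-453 and 82.2 to 89.7 kb in SKBR3, while that of KRT15 and KRT19 had 20.97 to 22.99 kb and 26.2 to 27.3 kb. CLDN4, a tight junction gene, had 17.5 and 30.5 kb on average. These 3 clusters thus had more cover in SKBR3, and CDH1 had none there. The cluster of ABHD11 and STX1A, 19.7 kb from CLDN3, had nearly equal means of 22.9 and 22.7 kb. The 8 genes were not separate hits, since CDH1 and CDH3 shared a cluster, and CLDN3 and CLDN4 lay near the same clusters. Of 16 basal and mesenchymal genes 3 (18.8%) lay within 100 kb and 0 inside a cluster, with KRT14 and KRT17 near that of KRT15 and KRT19. The nearest gene of a pair of clusters was TP63, a basal factor, with a mean MDA-MB-453 cover of 17.8 and 16.9 kb. In SKBR3 the first had 1.5 and 1.96 kb untreated and 3.11 and 8.79 kb with TWEAK. The second had 2.33 and 4.55 kb untreated and 3.41 and 8.52 kb with TWEAK. At both, the highest was TWEAK replicate 2, which was also the SKBR3 list with the most distal cover (88.1 Mb).

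Growth and survival oncogenes numbered 4 of 17 (23.5%), with MYC and PVT1 at the same cluster. The cluster at FGFR4, a fibroblast growth factor receptor gene, had 31.5 and 33.1 kb in the untreated and 33.4 and 33.7 kb in the TWEAK lists of MDA-MB-453 but 8.27 and 7.38 kb untreated and 6.33 and 4.62 kb with TWEAK in SKBR3. BCL2L1, an inhibitor of apoptosis, had 18.3 to 18.9 kb and 19.7 to 23.2 kb, and the cluster 43.8 kb from MYC, inside the PVT1 region, had 44.9 to 48.03 kb and 52.4 to 59.6 kb. FGFR4 was thus the one of these 3 clusters with less cover in SKBR3. Of 14 genes of ERBB receptors, ligands and adaptors 2 (14.3%) were found, ERBB2 and GRB7 of the same cluster.

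Of 17 lipid and sterol synthesis genes, 2 (11.8%) were found, and these were FASN, the fatty acid synthase gene, with 17.2 to 20.5 kb in MDA-MB-453 and 20.4 to 22.4 kb in SKBR3, and SREBF1, its known regulator, with 24.4 to 26.8 kb and 35.9 kb in every SKBR3 list. Of 23 apocrine and hormone response genes 2 (8.70%) were found, and these were MLPH (mean 24.4 and 35.7 kb) and ABCC11 (mean 24.8 and 10.5 kb). A further cluster 34.6 kb from the ABCC11 TSS had a mean of 17.6 and 11.7 kb. The share of this group was close to the 6.87% of all genes.

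TWEAK is known to signal through NF-kB and JNK. Of 24 NF-kB pathway genes 2 (8.33%) lay within 100 kb of a cluster, again close to the share of all genes, and of 17 AP-1 and small MAF genes 5 (29.4%) did. IKBKB, which encodes a kinase of the canonical NF-kB pathway, had 32.5 and 34.1 kb in the untreated and 30.9 and 31.8 kb in the TWEAK lists of MDA-MB-453 and was nearly uncovered in SKBR3 at 0.787 to 2.01 kb. The cluster at or nearest PPP1R37, 96.0 kb from the NF-kB subunit gene RELB, went the other way. It had 14.6 to 16.1 kb in MDA-MB-453 and more in SKBR3. It had 29.8 and 28.2 kb untreated and 28.0 and 27.2 kb with TWEAK in SKBR3, where it had a counterpart. There the lower untreated list and the higher TWEAK list were nearly equal. FOS had 14.8 to 17.5 kb in MDA-MB-453 and 9.29 to 11.5 kb in SKBR3, and JUNB had 19.8 to 22.7 kb and 19.9 to 21.3 kb. Unlike FOS, the cluster at or nearest JDP2, 51.7 kb from BATF, had more cover in SKBR3. It had 17.2 to 19.5 kb in MDA-MB-453 and 30.9 to 37.6 kb in SKBR3. That at or nearest PLA2G6, 13.0 kb from MAFF, had 18.4 to 19.4 kb and 13.6 to 19.0 kb. That near BACH1 had 14.0 to 14.8 kb and 7.51 to 10.7 kb. None of the 6 genes at the centre of the study lay within 100 kb of a cluster, and of 12 blood, endothelial and stromal genes 2 (16.7%) did, with 0 inside one. These lists were drawn up with earlier results of these data known, and their shares are descriptions.

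To describe cover with and without TWEAK, clusters were counted whose cover in both TWEAK lists lay above, or below, both untreated lists. In MDA-MB-453, 79 clusters (19.5%) were higher with TWEAK, against 17.7% of all 14695 clusters, and 74 (18.2%) were lower, against 18.0%. Both shares were close to those of all clusters. In SKBR3, among the 392 clusters with a distal peak in any SKBR3 list, 71 (18.1%) were higher, against 17.3% of all 10104 such clusters, and 67 (17.1%) were lower, against 10.8%. The share of lower clusters in SKBR3 varied with the settings, as given below, and the part of cluster size in its difference was not tested. With 2 libraries against 2 no single cluster can reach an exact p under 0.3333. The median TWEAK difference was 0.0458 kb in MDA-MB-453 and 0 kb in SKBR3, and 6 clusters differed by more than 20% of their untreated mean in MDA-MB-453. That last count was not taken over all 14695 clusters and is a description only.

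In MDA-MB-453 the largest difference upward was at NVL, an ATPase gene of ribosome assembly, with 28.3 and 29.2 kb in the untreated and 33.4 and 33.2 kb in the TWEAK lists of MDA-MB-453. In SKBR3 the NVL values overlapped, at 30.5 and 36.4 kb untreated and 29.3 and 33.97 kb with TWEAK. The cluster of PRPF19, a splicing factor gene, had 21.8 and 24.7 kb untreated and 26.6 kb in both lists with TWEAK, and that of XBP1 had 39.9 and 41.5 kb against 41.5 and 46.4 kb. At XBP1 one untreated and one TWEAK list were nearly equal.

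The largest difference downward was at TRIB3, a stress-induced pseudokinase gene, chr20:360561-403060, with 30.3 and 31.2 kb in the untreated and 21.5 and 21.7 kb in the TWEAK lists of MDA-MB-453. This difference of -9.17 kb was larger than the spread within either pair, while SKBR3 had 37.4 and 26.9 kb untreated and 36.02 and 26.05 kb with TWEAK, which overlapped. TM4SF1, a tetraspanin-like membrane protein gene, had 24.5 and 25.6 kb in the untreated and 18.7 and 18.5 kb in the TWEAK lists of MDA-MB-453, and 16.6 and 17.4 kb untreated and 17.9 and 25.5 kb with TWEAK in SKBR3. AGAP1, a GTPase-activating protein gene, had 20.2 and 22.2 kb in the untreated and 15.96 and 15.1 kb in the TWEAK lists of MDA-MB-453.

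In SKBR3 the largest differences upward were at ITPR1, given above, and ERRFI1, a feedback inhibitor of ERBB receptors. The ERRFI1 cluster, chr1:8005972-8079429, had 22.8 and 21.7 kb untreated and 36.6 and 41.1 kb with TWEAK in SKBR3, a difference of 16.6 kb, while MDA-MB-453 had 23.5 to 24.7 kb in its 4 lists. The cluster 38.6 kb from ANKRD46 had 12.1 and 9.95 kb untreated and 22.8 and 23.8 kb with TWEAK in SKBR3, and it was higher with TWEAK in MDA-MB-453 as well, where it had 23.1 and 22.3 kb untreated and 25.1 kb in both lists with TWEAK. The largest differences downward in SKBR3 were at PPARA, HILPDA, which encodes a lipid droplet protein, and the actin capping gene CAPZB. HILPDA had 25.96 and 24.5 kb untreated and 13.4 and 18.03 kb with TWEAK in SKBR3, and it was also lower with TWEAK in MDA-MB-453, at 21.5 and 21.8 kb untreated and 19.8 kb in both lists with TWEAK. CAPZB had 25.5 and 17.6 kb untreated and 14.1 and 12.9 kb with TWEAK in SKBR3.

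**Figure D5:**
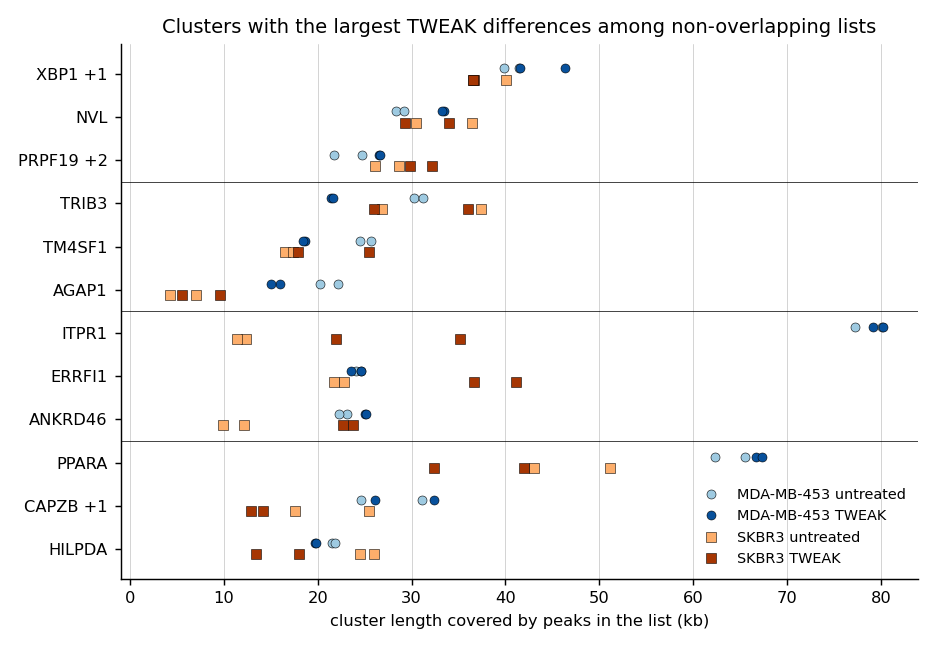
Cover (kb, x axis) in each of the 8 lists of the clusters with the 3 largest TWEAK differences upward and downward in MDA-MB-453 (upper 6 rows) and in SKBR3 (lower 6 rows), among clusters whose TWEAK and untreated lists did not overlap in that line. Circles are MDA-MB-453, squares are SKBR3, pale is untreated and dark is TWEAK. TRIB3 sits at 30.3 and 31.2 kb untreated and at 21.5 and 21.7 kb with TWEAK in MDA-MB-453, and ERRFI1 at 22.8 and 21.7 kb and at 36.6 and 41.1 kb in SKBR3.

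Of the 392 clusters with a distal SKBR3 peak, 34 (8.67%) were apart in the same direction in both lines, 18 higher and 16 lower with TWEAK, against 5.49% of all 10104. A further 23 (5.87%) were apart in opposite directions, against 4.82% of all, with 10 higher in MDA-MB-453 and lower in SKBR3 and 13 the reverse. The lists of a line were called from libraries of unlike enrichment, and the part of this in these counts was not tested.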

How the data were processed

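H3K27ac ChIP-seq peaks of 4 SKBR3 and 4 MDA-MB-453 libraries were analysed. Per the submitters' processing notes, Trimmomatic, Bowtie2, MACS2 and deepTools were used with the hg38 build. The authors called peaks in each library, and the deposited lists hold, beside positions, a score in whole numbers, a ratio (fold enrichment), and p-value and q-value as −log10. Score and p-value were not used, fold enrichment was used to describe and re-rank, and q-value to filter. Read counts were not used, so depth is unknown and counting error could not be given. A region outside a list may have had signal below the caller's threshold, and a library with more or wider peaks covers more of any region.

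Sequence names and peak ends were checked against hg38, and 0 peaks fell outside. TSS came from basic transcripts of GENCODE release 44, and chromosomes 1 to 22 and X were used. The rule for clusters is given above. Cover was computed on the distal peaks of each list. The comparison set was the 14695 merged stitched clusters with a distal peak in all 4 MDA-MB-453 lists. SKBR3 sums were compared with exact two-sided permutation tests over libraries. Single clusters were described by whether the lists of the groups overlapped. Motif windows were read from hg38. Computation used Python 3.11.15 with numpy 2.4.6, pandas 2.3.3 and pysam 0.24.0, and the rule was tested on simulated lists.

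The members, gene lists and motifs were chosen with earlier results of these data known. Named clusters were the 10 with the highest mean MDA-MB-453 cover, the 5 with the lowest and the 5 with the highest ratio of SKBR3 to MDA-MB-453 cover, those nearest to or holding a listed gene, and per line the 3 with the largest difference in each direction among clusters with non-overlapping TWEAK and untreated lists. The clusters without a distal SKBR3 peak and those at the selection limit were named after their values were seen. Clusters such as that of PPP1R37, which lay within 100 kb of a listed gene but outside this rule, are also given. Alternatives were a q-value under 1e-05, lists of equal size, other TSS, stitching and overlap distances, other list depths, another ranking, every sequence in the lists, leaving out single replicates, and the replicate number as a block. One gene, 1 motif and the sequence windows of 3 further clusters are not reported here.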

Additional observations from a re-analysis of the deposited data

Results flagged for a closer look

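Of the 60 named clusters, 5 had TWEAK lists that lay wholly to one side of the untreated lists in MDA-MB-453 and wholly to the other side in SKBR3. Among all clusters with a distal peak in an SKBR3 list, 4.82% did so, and the difference between the lines was not tested. Some of the 60, such as TM4SF1, were named because their TWEAK and untreated lists did not overlap in a line. The 5 of 60 and the 4.82% are therefore not a like comparison. The cluster near PPARA differed by 3.17 kb (TWEAK minus untreated) in MDA-MB-453 and by -9.95 kb in SKBR3. FGFR4 differed by 1.26 kb in MDA-MB-453 and by -2.35 kb in SKBR3. EHF went the other way, with -2.37 kb in MDA-MB-453 and 1.35 kb in SKBR3. The cluster over the TFAP2A start site had -0.478 kb and 0.995 kb, differences of less than 1 kb in either line. A further cluster 206 kb from TFAP2A was higher with TWEAK in MDA-MB-453, by 0.384 kb, and its lists overlapped in SKBR3. TM4SF1 had -6.50 kb in MDA-MB-453 and 4.71 kb in SKBR3, where one TWEAK list, at 17.9 kb, lay just above the untreated lists at 16.6 and 17.4 kb. Groups of 2 lists are too small for a test of outlying lists.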

How the results depend on the processing

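In 10 other settings and with each of the 8 libraries left out, the number of clusters was 397 to 428 and 406 to 424, except for 240 with the top 300 and 812 with the top 1000 of each list. Between 73.4% and 100% of the 406 clusters were found again, except for 59.1% with the top 300 and 68.0% with ranking by width times fold. Mean SKBR3 cover, 43.2% of cluster length, was 41.7% with lists of equal size, 45.3% with a TSS window of 1 kb, 45.7% with no peak dropped, 54.9% with stitching across 5 kb, 44.7% with the top 300, 41.9% with the top 1000 and 46.6% with ranking by width times fold, and 42.9% to 43.6% with one library left out. Clusters nearly uncovered in SKBR3, 32 here, numbered 53 with a q-value under 1e-05, 21 with a TSS window of 1 kb, 20 with no peak dropped, 14 with the top 300, 71 with the top 1000 and 15 with ranking by width times fold (3.50% to 13.0% of clusters), and 32 to 41 with one library left out. Those with an SKBR3 counterpart, 121 here, numbered 60 and 306 with the top 300 and the top 1000 (25% and 37.7%), 106 to 139 in other settings and 123 to 131 with one library left out. The cause of these shifts was not tested.

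Clusters higher and lower with TWEAK numbered 46 and 44 in MDA-MB-453 and 39 and 40 in SKBR3 with the top 300, and 157 and 158 and 143 and 129 with the top 1000. Those lower in SKBR3, 67 of 406 here, fell to 51 of 408 with a q-value under 1e-05. They were 50 of 397 with stitching across 5 kb, and rose to 75 of 405 with no peak dropped. The share of all clusters in these settings is not given here. With one library left out, clusters higher and lower with TWEAK were 79 to 171 and 74 to 155 in MDA-MB-453 and 74 to 148 and 67 to 165 in SKBR3. Leaving out any library of the line counted raised these counts by over 1.5 times, except for clusters lower in SKBR3 without SKBR3 untreated replicate 1 (94), since 3 lists overlap less often than 4. The highest counts came without MDA-MB-453 untreated replicate 2 (171), MDA-MB-453 untreated replicate 1 (155), SKBR3 TWEAK replicate 1 (148) and SKBR3 untreated replicate 2 (165). The TWEAK difference in SKBR3 cover was -0.151 percentage points with lists of equal size, -0.0188 with a TSS window of 1 kb, -0.232 with no peak dropped, 1.49 with a q-value under 1e-05 (exact p = 0.3333, the smallest possible), 0.911 with stitching across 5 kb, 0.273 to 0.632 in the remaining settings, and -0.698 to 1.41 with one library left out. That in SKBR3 counterparts was -2.50 with stitching across 5 kb and with ranking by width times fold, and 0.5 to 7.5 with one library left out. With the replicate number as a block (replicate block, 2 pairs), the differences stayed 0.354 percentage points (exact p = 1.00) and 4 clusters (exact p = 0.5, the smallest possible), with pair values of -0.978 and 1.69 points and of 3 and 5 clusters. The samples share only a number, and no call changed. Depth is unknown, so peaks near the caller's threshold limit every count.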

Other observations

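Several of the 14 clusters without a distal SKBR3 peak lay far from any protein-coding TSS. The nearest was 401 kb away for the cluster named after RAPGEF2, 258 kb for DACH1, a developmental transcription factor gene, 230 kb for MME, a cell surface peptidase gene, and 200 kb for SEC23IP. Their cover ranged from 13.7 to 15.6 kb at DACH1 and from 17.8 to 19.1 kb at MME over the 4 MDA-MB-453 lists. The SKBR3 peak nearest to the DACH1 cluster lay 22.6 kb away, and that nearest to the MME cluster 57.8 kb away.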
